A study of Mus musculus with 60 samples.

Results

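The 9 lipid-laden macrophage genes described here are Trem2, Itgax, Cd9, Atp6v0d2, Gpnmb, Cd63, Mmp12, Spp1 and Lgals3. They were found by symbol in a bulk RNA table of 54352 mouse genes, and each matched 1 row. The table holds 60 libraries of 3′ digital gene expression, a method that counts short tags from the 3′ ends of transcripts. They come from subcutaneous white fat (scWAT), visceral white fat (vWAT) and triceps muscle of 20 C57BL/6JN mice, and the 40 fat libraries are described here. For 6 weeks the mice ate either chow, in which fat gave 10% of the energy, or a high-fat diet (HFD), in which it gave 60%. On each diet some mice stayed sedentary and the others ran on a wheel during the last 3 weeks. This gives 4 groups of 5 mice: chow sedentary, chow trained, HFD sedentary and HFD trained. All mice were 12 weeks old, had fasted for 6 hours and had spent 24 hours with the wheels locked before tissue was taken. A mouse keeps the same number in both depots. Running was voluntary. The distance run, the sex of the mice and the exact visceral pad were not part of the information used here.

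In obese fat, macrophages gather around dying adipocytes, take up their lipid and pass it through an enlarged lysosomal compartment. Cells in this state are known for surface receptors that bind lipid, for lysosomal membrane proteins and for secreted factors that act on the matrix. Trem2 is the receptor most closely tied to the state in mouse fat. Other cells also use several of the 9 genes: Cd63 and Cd9 are made by most cell types, Lgals3 by many, and Itgax by dendritic cells as well as macrophages.

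The 9 genes lie on 8 chromosomes of the mm10 build. Trem2 lies at chr17:48346401-48354147, Itgax at chr7:128129547-128150657, Atp6v0d2 at chr4:19876841-19922605, Gpnmb at chr6:49036546-49070929, Mmp12 at chr9:7344381-7369499, Spp1 at chr5:104435118-104441050, Lgals3 at chr14:47367751-47386160, Cd63 at chr10:128900989-128912822 and Cd9 at chr6:125460266-125494791. All are protein coding. RefSeq promoters (GRCm38.p6, from 250 bases before the transcript start to 30 bases after it) were matched for 8 of the 9 genes, with 10 starts in all. The AP-1 motif TGANTCA, which reads the same on both strands, is the site of the Fos and Jun factors of activated macrophages. It was found in 4 of the 10 windows and in 7.461% of 32851 mouse promoters. The 4 windows are shown because they are the members' only ones with this motif, which is in capitals, and each is printed on the strand of its gene.
Mmp12, second of 2 starts, chr9:7347124-7347403: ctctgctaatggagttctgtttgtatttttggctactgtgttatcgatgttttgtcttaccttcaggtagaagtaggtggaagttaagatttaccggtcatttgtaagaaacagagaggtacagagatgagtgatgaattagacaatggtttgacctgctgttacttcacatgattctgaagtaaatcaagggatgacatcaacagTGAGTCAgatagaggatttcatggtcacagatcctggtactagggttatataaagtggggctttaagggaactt
Trem2, chr17:48346151-48346430: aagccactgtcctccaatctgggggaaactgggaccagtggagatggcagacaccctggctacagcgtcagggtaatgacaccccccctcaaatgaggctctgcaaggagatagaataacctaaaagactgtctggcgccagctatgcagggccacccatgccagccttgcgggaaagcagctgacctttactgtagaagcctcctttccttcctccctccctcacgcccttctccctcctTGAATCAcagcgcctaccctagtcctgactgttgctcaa
Gpnmb, chr6:49036268-49036547: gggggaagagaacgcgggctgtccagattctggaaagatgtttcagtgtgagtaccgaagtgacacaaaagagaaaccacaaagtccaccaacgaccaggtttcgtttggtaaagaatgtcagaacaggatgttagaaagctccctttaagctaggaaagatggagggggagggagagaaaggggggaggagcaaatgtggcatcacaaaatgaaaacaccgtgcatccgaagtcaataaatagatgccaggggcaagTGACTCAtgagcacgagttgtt
Itgax, chr7:128129300-128129579: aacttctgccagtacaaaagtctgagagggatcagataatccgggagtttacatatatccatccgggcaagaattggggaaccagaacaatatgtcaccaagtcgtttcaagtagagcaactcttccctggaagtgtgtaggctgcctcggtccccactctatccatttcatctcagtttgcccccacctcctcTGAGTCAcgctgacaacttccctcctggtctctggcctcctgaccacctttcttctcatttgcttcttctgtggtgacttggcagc
Counted from the transcript start as base 1, the motif lies at -44 to -38 for Mmp12, at -9 to -3 for Trem2, at 9 to 15 for Gpnmb and at -56 to -50 for Itgax. Of 4 other motifs searched on both strands, AGGAAGT (the core bound by PU.1) was found in 2 of the 10 windows and in 8.648% of all promoters. CACGTG, the E-box of the lysosomal MiT/TFE factors, was found in 0 of 10 and in 6.794%, and its variant CATGTG in 2 of 10 and in 13.43%. AGGTCA, the single-repeat site of LXR and related receptors, was found in 2 of 10 and in 15.35%. These matches describe letters in the windows. No binding was measured.

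Totals per fat library ran from 505336 to 720220 estimated counts, with a median of 640983, so 3 counts, the most that a count of 0 allows, are worth 4.17 to 5.94 CPM (counts per 1000000 counts of the library) in scWAT and 4.35 to 5.17 in vWAT. All 9 adipocyte markers and all 20 general macrophage markers looked for had reads in every fat group, and the adipocyte markers summed to 16271 to 37302 reads per library. Library pools were not named in the labels. They were inferred from blocks of 12 consecutive library codes, since the labels say that cDNA of 12 wells was pooled. The block boundary was placed where the reads of other organs change, so those reads are no independent support for the blocks. The vWAT libraries fall into 3 such blocks. The first holds 5 chow libraries with 421 to 592 reads of heart genes. The second holds 12 libraries of all 4 groups with 0 to 8. The third holds HFD sedentary mouse 5 and HFD trained mice 4 and 5, with 145 to 217 reads of intestinal genes against 0 to 18 in the second. HFD sedentary mouse 5 also led 9 of the 9 genes in the vWAT of its group, so the members' vWAT results and the gene list counts that use this library are given with and without it. In scWAT 6 chow libraries held 403 to 1108 reads of lymph node stroma genes. Skeletal muscle marker reads ran from 58 to 57997 per scWAT library. Liver marker reads ran from 89 to 4505 per vWAT library, a range that the second block alone spans. Such reads enter the totals behind CPM, and their part in the member values was not tested. Bulk values do not separate the number of cells of a type from the RNA per cell.

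**Figure D1:**
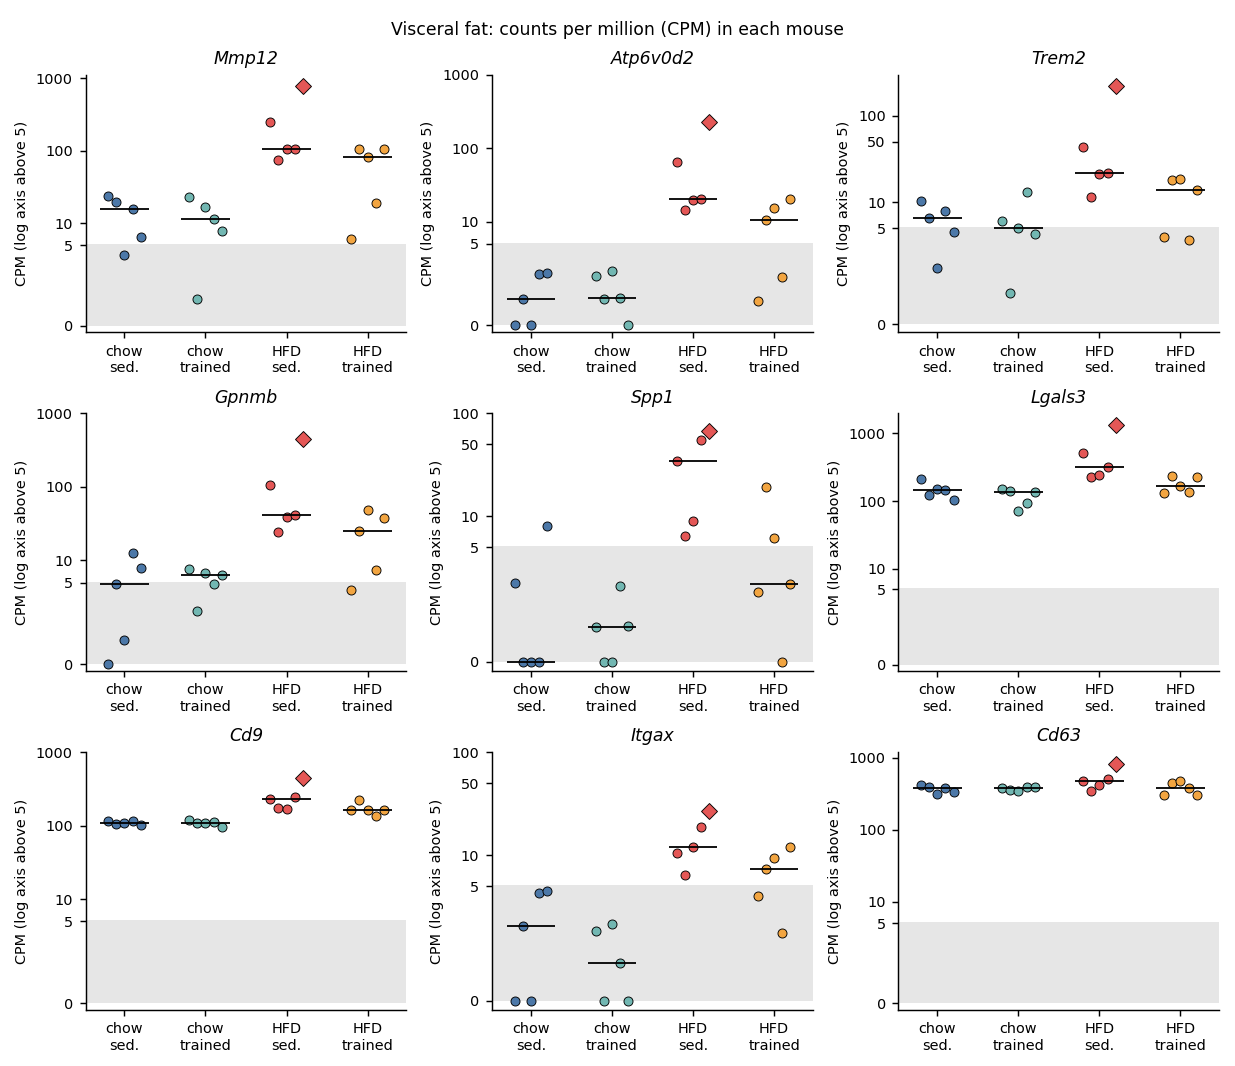
CPM of the 9 genes in vWAT for each of the 20 mice by group (log axis above 5 CPM); the black line is the group median, the diamond HFD sedentary mouse 5 and the grey band the range up to 3 counts. For Mmp12, Trem2, Gpnmb, Atp6v0d2, Lgals3, Cd9 and Itgax all 5 HFD sedentary mice lie above all 5 chow sedentary mice, whereas HFD trained mice spread over both ranges, except for Cd9, where all 5 lie above the chow mice.

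Of the surface receptors, Trem2 binds lipids and lipoproteins and signals through the adaptor Tyrobp. In vWAT Trem2 stood at 43.3, 11.3, 21.1, 21.8 and 217 CPM in HFD sedentary mice 1 to 5. The chow sedentary mice had 10.3, 6.51, 2.92, 7.80 and 4.78 CPM of Trem2, which is 2 to 6 reads each. The lowest HFD sedentary mouse was thus just above the highest chow sedentary mouse, and mouse 5 alone held 69.0% of the HFD sedentary group's summed CPM. HFD trained mice had 4.55, 17.8, 18.6, 4.40 and 13.6 CPM of Trem2, and chow trained mice 6.10, 1.62, 5.02, 13.2 and 4.68. HFD trained mice 1 and 4 therefore sat at the chow level of Trem2, while mice 2 and 3 sat above every chow trained mouse. HFD trained mouse 5 had 8 reads of Trem2, the same as the highest chow trained mouse. In edgeR's quasi-likelihood test with Benjamini-Hochberg adjustment over all genes tested, the log2 fold change of Trem2 from chow sedentary to HFD sedentary vWAT was 3.06 (SE 0.82, adjusted p = 0.0273). Without mouse 5 the difference in Trem2 was 1.72 (adjusted p = 0.0199). Trem2 passed the filter on low counts only with the HFD sedentary libraries, the higher arm here, which biases both tests toward a call.

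In scWAT Trem2 had 2.93, 2.83, 7.92, 16.2 and 49.9 CPM in HFD sedentary mice 1 to 5, that is 2, 2, 5, 10 and 32 reads. In the other 3 groups it had 0 to 4 reads in a library. Mice 3, 4 and 5 lay above all chow sedentary mice and mice 1 and 2 among them. Trem2 fell below the filter on low counts in scWAT, and the exact permutation test of mean CPM, 15.95 against 1.96, gave a two-sided p of 0.0476 where the smallest p that 252 regroupings allow is 0.00794. This is 1 of 16 such tests of members below the filter, none of them adjusted; p was below 0.05 in 8, and in 3 or 4 when any 1 chow sedentary mouse was left out.

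Itgax encodes CD11c, the alpha subunit of an integrin whose partner is Itgb2. Its vWAT level was 10.5, 6.45, 12.0, 18.9 and 26.9 CPM in HFD sedentary mice, from 4 to 18 reads, against 0, 3.26, 0, 4.68 and 4.78 CPM in chow sedentary mice, from 0 to 3 reads. Both groups were apart, although all chow values lie at or under the 3 counts that a count of 0 allows. In HFD trained mice Itgax stood at 4.55, 7.41, 9.31, 2.93 and 11.9 CPM, and in chow trained mice at 0 to 3.35. The exact permutation test of mean CPM gave p = 0.00794 in sedentary mice, 14.9 ± 8.05 against 2.54 ± 2.40 CPM (SD, n = 5 each), and p = 0.0238 in trained mice, 7.22 against 1.61. Without mouse 5 the HFD sedentary mean was 11.95 CPM and p was again 0.00794. In scWAT Itgax had 0 to 4 reads in each of the 20 libraries, which limits what can be said of it there. The 5 HFD sedentary mice had 2 to 4 reads of Itgax in scWAT and the 5 HFD trained mice 0 to 2, so the ranges met at 2 reads.

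Cd9 encodes a tetraspanin of the cell surface and of exosomes that many cell types carry. In vWAT Cd9 had 235, 176, 170, 248 and 443 CPM in HFD sedentary mice and 115, 107, 108, 117 and 102 in chow sedentary mice. The chow mice lay close together and all HFD sedentary mice were above them. HFD trained mice had 162, 224, 166, 136 and 162 CPM of Cd9, also all above the chow trained mice at 119, 108, 109, 112 and 96.8, a separation shown by 5.09% of all genes tested. The difference in Cd9 in sedentary mice was 1.00 on the log2 scale (SE 0.18, adjusted p = 0.000499) and 0.72 without mouse 5 (adjusted p = 0.00278). In trained mice it was 0.46 (SE 0.18, adjusted p = 0.227) and did not pass. In scWAT Cd9 stood at 204, 255, 112, 180 and 295 CPM in HFD sedentary mice against 142, 154, 101, 121 and 106 in chow sedentary mice. Mouse 3 lay within the chow range, and the difference of 0.56 (SE 0.19, adjusted p = 0.0738) did not pass.

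Of the lysosomal genes, Atp6v0d2 encodes a subunit of the proton pump that acidifies lysosomes, a form best known from osteoclasts and macrophages. In chow vWAT Atp6v0d2 was at the limit of detection, with 0, 1, 0, 2 and 2 reads in sedentary and 2, 1, 2, 1 and 0 in trained mice. HFD sedentary mice had 64.2, 14.5, 19.6, 20.3 and 223 CPM of it, or 43, 9, 13, 14 and 149 reads. All 5 were above all 10 chow mice, and mouse 5 held 65.2% of the group's summed CPM. HFD trained mice had 1.52, 10.4, 15.5, 2.93 and 20.4 CPM of Atp6v0d2, so mice 1 and 4 were again at the chow level. The difference in sedentary mice was 5.07 on the log2 scale (SE 1.06, adjusted p = 0.00603), and 3.89 without mouse 5 (adjusted p = 0.00084). Both figures rest on chow groups near 0 and so depend on how the fit treats such counts. Atp6v0d2 also passed the filter on low counts only with the HFD sedentary libraries, which biases both tests toward a call. In scWAT Atp6v0d2 had 1, 1, 3, 9 and 18 reads in HFD sedentary mice and 0 to 2 in every other library. Its mean there was 10.1 ± 11.4 CPM (SD, n = 5) against 0.613 ± 0.845 in chow sedentary mice (exact permutation p = 0.0317).

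Gpnmb encodes a glycoprotein of lysosomes and melanosomes that macrophages make under lysosomal stress. Its vWAT level was 105, 24.2, 39.1, 42.1 and 449 CPM in HFD sedentary mice and 0, 4.88, 1.46, 12.5 and 7.97 in chow sedentary mice. The groups did not overlap, and the chow values come from 0 to 8 reads. In HFD trained mice Gpnmb had 4.55, 25.2, 48.1, 7.34 and 37.4 CPM, and in chow trained mice 7.62, 3.24, 6.69, 4.94 and 6.24. Mice 2, 3 and 5 of the HFD trained group lay above all chow trained mice, and mice 1 and 4 did not. The difference in Gpnmb in sedentary mice was 4.36 on the log2 scale (SE 0.96, adjusted p = 0.00856) and 3.06 without mouse 5 (adjusted p = 0.0143). Like Trem2, Gpnmb passed the filter on low counts only with the HFD sedentary libraries, which biases both tests toward a call. In scWAT Gpnmb had 13.2, 15.6, 11.1, 27.5 and 65.5 CPM in HFD sedentary mice against 6.18, 1.98, 9.72, 9.17 and 6.70 in chow sedentary mice. All HFD sedentary mice were above all chow sedentary mice in scWAT too (exact permutation p = 0.00794 for 26.6 against 6.75 CPM). HFD trained mice had 12.2 ± 3.94 CPM of Gpnmb in scWAT and chow trained mice 3.83 ± 2.91 (SD, n = 5 each; exact permutation p = 0.0159).

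Cd63 encodes a tetraspanin of late endosomes and lysosomes found in nearly every cell. In vWAT it stood at 477, 349.9, 417, 514 and 813 CPM in HFD sedentary mice and 419, 397, 310, 378 and 336 in chow sedentary mice. These ranges overlapped. The difference of 0.28 on the log2 scale (SE 0.16, adjusted p = 0.353) did not pass, and without mouse 5 it was 0.07. In scWAT Cd63 ran from 279 to 435 CPM in HFD sedentary and from 242 to 319 in chow sedentary mice, a difference of 0.20 (SE 0.15, adjusted p = 0.486).

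Of the secreted products, Mmp12 is the macrophage elastase, an enzyme that cuts elastin and other matrix proteins. In vWAT Mmp12 had 248, 75.8, 105, 107 and 773 CPM in HFD sedentary mice and 24.1, 19.5, 4.38, 15.6 and 6.38 in chow sedentary mice. All HFD sedentary mice were well clear of the highest chow mouse, with 47 to 517 reads against 3 to 14. Mmp12 had 6.07, 105, 82.3, 19.1 and 105 CPM in HFD trained mice, where mouse 1 had 4 reads and mouse 4 had 13. Those mice lay within the chow trained range of 1.62 to 22.9 CPM and the other 3 mice lay far above it. The difference in sedentary mice was 4.03 on the log2 scale (SE 0.83, adjusted p = 0.00575) and 3.09 without mouse 5 (adjusted p = 0.0157). In scWAT Mmp12 had 10.3, 21.2, 11.1, 63.1 and 68.6 CPM in HFD sedentary mice, from 7 to 44 reads, against 1.54, 1.98, 2.78, 1.53 and 8.38 in chow sedentary mice, from 1 to 5 reads. Both groups were apart (34.9 ± 28.7 against 3.24 ± 2.92 CPM, SD, n = 5 each; exact permutation p = 0.00794). In HFD trained scWAT Mmp12 returned 4, 1, 1, 1 and 13 reads, and mice 1 and 5 lay above all chow trained mice.

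Spp1 encodes osteopontin, a secreted ligand of integrins and of Cd44. In vWAT it had 23, 4, 6, 38 and 45 reads in HFD sedentary mice and 2, 0, 0, 0 and 5 in chow sedentary mice. Mouse 2, with 6.45 CPM, lay within the chow range, which reached 7.97 CPM, and the other 4 lay above it. With training on HFD Spp1 had 2, 13, 4, 0 and 2 reads. The exact permutation test gave p = 0.0159 for sedentary mice, 34.5 ± 27.1 against 2.28 ± 3.51 CPM (SD, n = 5 each), and p = 0.111 for trained mice. Without mouse 5 the HFD sedentary mean of Spp1 was 26.2 CPM and p was again 0.0159. In scWAT Spp1 had 1 to 15 reads per library in every group and means of 7.48 to 10.5 CPM, and its groups overlapped in every comparison.

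Lgals3 encodes galectin-3, a lectin that binds sugars of glycoproteins and is abundant in macrophages. In vWAT Lgals3 had 508, 226, 244, 316 and 1301 CPM in HFD sedentary mice and 212, 122, 150.4, 145 and 104 in chow sedentary mice. The groups did not overlap, although HFD sedentary mice 2 and 3 were only just above chow mouse 1. HFD trained mice, at 131, 237, 165, 135 and 228 CPM, overlapped with chow trained mice at 149, 142, 71.97, 92.3 and 136. The difference in Lgals3 in sedentary mice was 1.61 on the log2 scale (SE 0.43, adjusted p = 0.0259). Without mouse 5 it was 0.95 and no longer passed (adjusted p = 0.0598). In scWAT Lgals3 had 76.2, 87.7, 85.5, 219.9 and 312 CPM in HFD sedentary mice against 66.4, 41.6, 72.2, 76.4 and 43.6. Mice 4 and 5 carried most of that difference of 1.17 (SE 0.40, adjusted p = 0.0945), which did not pass.

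**Figure D2:**
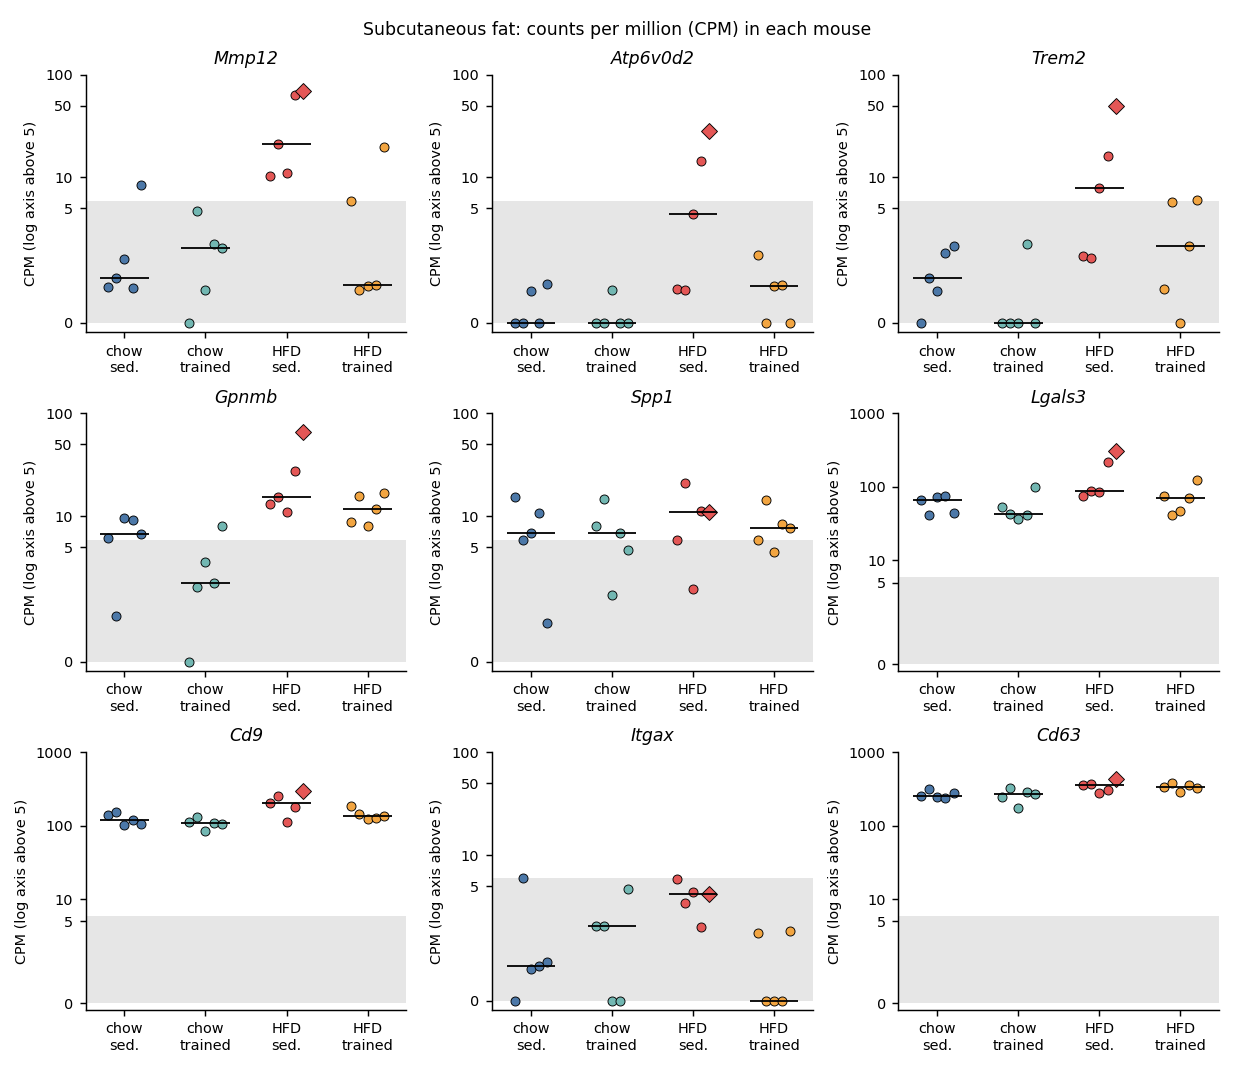
CPM of the 9 genes in scWAT for each of the 20 mice by group (log axis above 5 CPM); the black line is the group median, the diamond HFD sedentary mouse 5 and the grey band the range up to 3 counts. HFD sedentary mice 4 and 5 lead Mmp12, Atp6v0d2, Trem2, Gpnmb and Lgals3, and most chow values of Mmp12, Atp6v0d2, Trem2 and Itgax lie in the grey band.

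For the HFD effect in sedentary mice in vWAT, 6 of the 7 genes that passed the filter were called higher at an adjusted p below 0.05, while 3.92% of all 6990 genes tested were called higher. Trem2, Gpnmb and Atp6v0d2 passed the filter only with the HFD sedentary libraries, which biases that count upward, whereas Mmp12, Lgals3, Cd9 and Cd63 passed without them. Spp1 and Itgax did not pass. CPM of both groups did not overlap for 6 of the 7, against 8.17% of all genes tested. Without HFD sedentary mouse 5, 5 of the 7 were called higher, beside 2.34% of all 7169 genes tested. Without any 1 of chow sedentary mice 2 to 5, Trem2 and Lgals3 missed the threshold, with adjusted p of 0.0576 to 0.0696 for Trem2 and 0.0534 to 0.0726 for Lgals3. In the pool of 12 libraries, with 4 HFD and 2 chow sedentary mice and without mouse 5, none was called. Mmp12 stood there at 134 against 11.0 CPM and Gpnmb at 52.5 against 10.2, each without overlap, which 20.1% of all genes tested showed in these 6 libraries. Of the members only Cd9 was called with the pool as a factor (0.94, adjusted p = 0.0103) or with limma voom (0.92, adjusted p = 0.00159).

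For the HFD effect in trained mice in vWAT, no member was called by edgeR, DESeq2 or limma voom, beside 2.62% of all genes. Mmp12 was 2.18 higher on the log2 scale (SE 0.91, adjusted p = 0.29), Atp6v0d2 2.09 (SE 1.37, adjusted p = 0.548) and Gpnmb 1.86 (SE 1.14, adjusted p = 0.515). Trem2 differed by 0.75 (SE 1.03, adjusted p = 0.813) and Lgals3 by 0.42 (SE 0.44, adjusted p = 0.749). Unadjusted p was below 0.05 for Mmp12 and Cd9, at 0.0283 and 0.0172. On total counts in place of TMM, the normalisation behind every fold here, the median of all genes moved from −0.0022 to 0.18 in this contrast, and Cd9 was then called (0.65, adjusted p = 0.0431). In sedentary mice that median moved from −0.01 to 0.20 and Cd63 was called (0.50, adjusted p = 0.0451).

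For training on HFD in vWAT, no member was called, beside 1.87% of all genes called lower. The fitted difference was below 0 for each of the 7 tested genes and for 47.9% of all genes, but Atp6v0d2, Trem2 and Gpnmb passed the filter only through the HFD sedentary libraries, the higher arm of this comparison. Atp6v0d2 was 2.69 lower on the log2 scale (log2 difference −2.69, SE 0.76, adjusted p = 0.0697), Lgals3 at −1.47 (SE 0.42, adjusted p = 0.0716) and Trem2 at −2.34 (SE 0.73, adjusted p = 0.103). Gpnmb stood at −2.37 (SE 0.75, adjusted p = 0.11), Cd9 at −0.52 (SE 0.18, adjusted p = 0.113), Mmp12 at −1.98 (SE 0.69, adjusted p = 0.146) and Cd63 at −0.36 (SE 0.16, adjusted p = 0.286). The groups were apart for 0 of the 7, against 2.72% of all genes lower without overlap. DESeq2 called Atp6v0d2, Trem2 and Lgals3, and limma voom none. These differences lean on HFD sedentary mouse 5: without it Trem2 was at −1.003 (adjusted p = 0.3), Gpnmb at −1.07 (adjusted p = 0.461), Mmp12 at −1.04 (adjusted p = 0.527) and Atp6v0d2 at −1.52 (adjusted p = 0.166). Lgals3 was then at −0.81 (adjusted p = 0.209), Cd9 at −0.24 (adjusted p = 0.588) and Cd63 at −0.14 (adjusted p = 0.799). Without mouse 2, the lowest HFD sedentary mouse in 8 of the 9 genes, 6 members were called lower, beside 2.96% of all genes, and without mouse 3 it was 3, beside 2.17%. Within the pool of 12, which lacks mouse 5, Atp6v0d2 was at −1.66 and Lgals3 at −0.84, with none called.

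**Figure D3:**
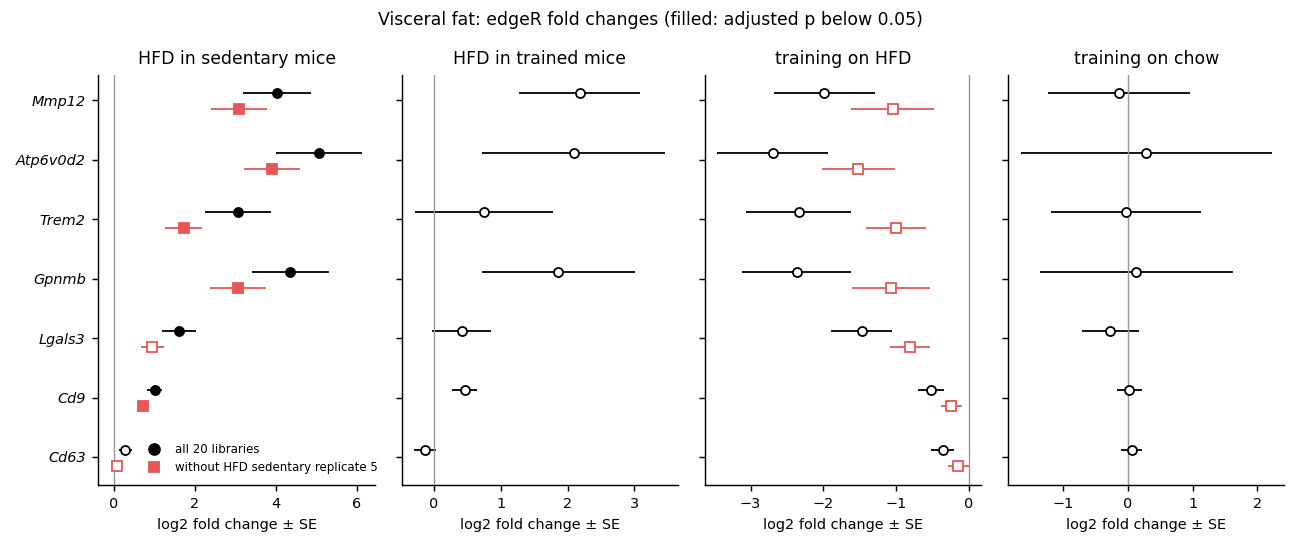
Log2 fold changes of the 7 tested genes in vWAT with 1 SE to each side, for 4 contrasts; black circles use all 20 libraries, red squares leave out HFD sedentary mouse 5, and filled points have an adjusted p below 0.05. Calls appear only for the HFD effect in sedentary mice, where Lgals3 loses its call without mouse 5.

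Training on chow left no member called in vWAT, beside 0.587% of all genes, and unadjusted p was 0.539 or higher for each. Mmp12 averaged 14.0 ± 8.46 CPM in chow sedentary and 12.1 ± 8.16 in chow trained vWAT (SD, n = 5 each), and Trem2 6.47 ± 2.84 and 6.12 ± 4.28. Those levels overlapped throughout, and at 1 to 15 reads a change in Mmp12 or Trem2 of less than several fold would not be detectable. The diet by training interaction, which asks whether HFD acted differently in trained mice, was called for no member and for 0.0143% of all genes. Trem2 had an interaction of −2.31 (SE 1.42, adjusted p = 0.831), Lgals3 one of −1.20 (SE 0.61, adjusted p = 0.769) and Cd9 one of −0.54 (SE 0.26, adjusted p = 0.712; unadjusted 0.0453, the only member below 0.05). DESeq2 and limma voom called no member in either contrast. Without HFD sedentary mouse 5 none was called either, with Trem2 at −0.97 (adjusted p = 0.958), Lgals3 at −0.53 (adjusted p = 0.958) and Cd9 at −0.26 (adjusted p = 0.962). The HFD effects of sedentary and trained mice are therefore not shown to differ for any of the 7.

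In scWAT only Lgals3, Cd9 and Cd63 passed the filter. For HFD in sedentary mice the groups were apart for 0 of these 3, against 5.57% of all genes higher without overlap, and for Mmp12 and Gpnmb of the other 6. None was called for HFD in sedentary mice, beside 3.55% of all 7069 genes called higher, nor for training on HFD (0.297% called lower), HFD in trained mice (5.16%), training on chow (0%) or the interaction (0%). Unadjusted p was below 0.05 for Lgals3 and Cd9 in the HFD effect in sedentary mice and again for training on HFD, where Lgals3 was at −1.11 (SE 0.40, adjusted p = 0.267) and Cd9 at −0.49 (SE 0.19, adjusted p = 0.278). DESeq2 called Lgals3 in the former (1.19, adjusted p = 0.0351), and limma voom called none. With no filter, Mmp12 (3.20, adjusted p = 1.85e-08), Atp6v0d2 (3.44, adjusted p = 0.00438), Trem2 (2.73, adjusted p = 0.00116) and Gpnmb (1.70, adjusted p = 0.00209) were called higher with HFD in sedentary mice, on the low counts given above. In 6 of the 10 fits that left out 1 sedentary mouse Mmp12 passed the filter and was the single member called, and without HFD sedentary mouse 3 Mmp12, Gpnmb and Cd9 were called. For training on HFD, Mmp12 was called without HFD sedentary mouse 1, and Mmp12 and Cd9 without mouse 3. Mmp12 and Gpnmb reach the filter's level in 4 scWAT libraries each, all of them HFD, so a test of either is made only where HFD is high. Both scWAT pools hold all 4 groups. In the pool with 3 HFD and 2 chow sedentary mice Mmp12 had 7 to 44 against 1 to 5 reads and Gpnmb 7 to 42 against 4 to 6. In the other, with 2 and 3 mice, Mmp12 had 7 to 15 against 1 to 2 reads and Gpnmb 9 to 11 against 1 to 7. CPM did not overlap for Mmp12 and Gpnmb in either pool, nor for 23.1% of all genes tested in the former and 24.2% in the latter, counting those higher with HFD. Atp6v0d2 had 1 read in both HFD mice of the latter pool and 0 to 1 in its chow mice, too few to compare.

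Both depots came from the same mice. By the library codes no inferred pool holds libraries of both depots, so depot and pool cannot be told apart in the differences below. In 20 of 20 mice Trem2 and Lgals3 had more CPM in vWAT than in scWAT, Mmp12 in 18, Cd63 in 17, Atp6v0d2 in 16, Gpnmb and Itgax in 14 and Cd9 in 12. Spp1 went the other way in 13 of 20 mice, among them 9 of the 10 chow mice. In HFD sedentary mice, 5 genes were called higher in vWAT with the mouse as a block (3.13% of 7931 genes): Mmp12 by 2.63 (SE 0.54, adjusted p = 0.00802), Atp6v0d2 by 2.54 (SE 0.50, adjusted p = 0.00247), Gpnmb by 1.88 (SE 0.41, adjusted p = 0.00777), Trem2 by 1.81 (SE 0.38, adjusted p = 0.00336) and Lgals3 by 1.57 (SE 0.27, adjusted p = 0.000847). Atp6v0d2 and Trem2 passed the filter of this fit only through the vWAT HFD sedentary libraries, its higher arm, with 4 there and 2 and 4 elsewhere at the level that 5 libraries must reach. In each of these 5 genes vWAT was higher in 5 of 5 mice. Spp1 (1.47, adjusted p = 0.142), Cd63 (0.45, adjusted p = 0.0695) and Cd9 (0.20, adjusted p = 0.51) did not pass. Without mouse 1 or without mouse 5 the count fell to 2, Atp6v0d2 (2.07) and Lgals3 (1.29) in the former, Mmp12 (2.28) and Lgals3 (1.42) in the latter. In chow sedentary mice Lgals3 alone was called higher in vWAT (1.23, SE 0.28, adjusted p = 0.00471; 6.73% of all genes). The HFD effect was not shown to differ between depots for any member (1.61% of all genes called), and the widest gaps were in Spp1 (3.33, SE 1.03, adjusted p = 0.11) and Gpnmb (2.35, SE 0.85, adjusted p = 0.201). Unadjusted p was below 0.05 for those alone, and limma voom called none. Spp1 passed the filter through HFD libraries alone, 3 of them vWAT HFD sedentary. Without chow sedentary mouse 5 or HFD sedentary mouse 2 Spp1 was called in that difference, at 4.91 and 4.10. Without chow mouse 5 Spp1 was also called lower in vWAT of chow sedentary mice (−3.42, adjusted p = 0.0264).

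**Figure D4:**
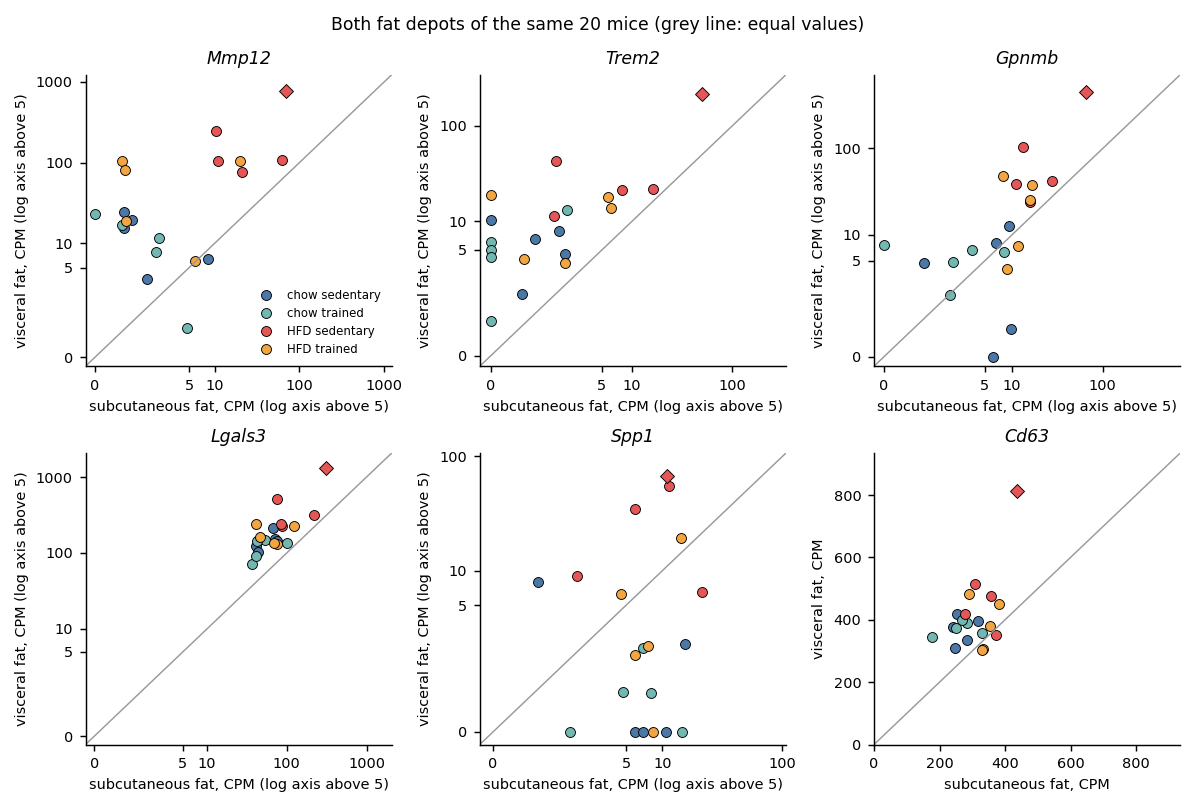
CPM in scWAT (x axis) against vWAT (y axis) of the same mouse for Mmp12, Trem2, Gpnmb, Lgals3, Spp1 and Cd63, on axes that are logarithmic above 5 CPM, or linear for Cd63; the grey line marks equal values and the diamond HFD sedentary mouse 5. Trem2 and Lgals3 lie above the line in 20 of 20 mice, and Spp1 below it in 13.

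HFD sedentary mouse 5 led most of the 9 genes in both depots, but the mouse that followed it was not the same. For Mmp12, Atp6v0d2, Trem2, Gpnmb and Lgals3, HFD sedentary mouse 1 ranked 2 of the 10 HFD mice in vWAT and 6 or 7 in scWAT. HFD sedentary mouse 4 ranked 3 or 4 in vWAT and 2 in scWAT for these genes. HFD sedentary mouse 5 had the highest CPM of its group for 9 of 9 genes in vWAT and for 7 of 9 in scWAT, all but Spp1 and Itgax. In vWAT it stood 5.00 times above the next mouse for Trem2, 4.29 times for Gpnmb, 3.47 times for Atp6v0d2, 3.12 times for Mmp12 and 2.56 times for Lgals3. For Cd9, Cd63, Itgax and Spp1 that factor was 1.22 to 1.78. Its scWAT library lies in a pool of all 4 groups with 0 or 1 intestinal reads a library. In scWAT mouse 5 held 49.9 CPM of Trem2 against 16.2 in the next mouse. The part of the pools in the values of mouse 5 was not tested in either depot.

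Other macrophage genes were higher in the same libraries. In HFD sedentary vWAT 14 of 18 tested general macrophage markers were called higher and none lower, beside 3.92% of all genes called higher. Their median was 1.27 on the log2 scale against −0.01 over all genes. Without mouse 5, 13 of the 18 markers were called higher, beside 2.34% of all genes, with a median of 0.99. They include Ctss, a lysosomal protease (2.52, adjusted p = 0.00265), and Laptm5, a lysosomal protein of leukocytes (1.21, adjusted p = 0.00165). Reads of the 20 markers ran from 685 to 946 in chow sedentary vWAT and from 1225 to 6137 in HFD sedentary vWAT, with the highest in mouse 5. The share of mitochondrial reads ran from 12.9 to 18.9% and from 6.14 to 9.64% in the same groups, and neutrophil and mast cell marker reads from 24 to 29 and from 60 to 245. The part of these in the member results was not tested. Trem2, Gpnmb, Atp6v0d2 and Mmp12, picked with their values known as the tested members with the widest rises on HFD in vWAT, had 2.19 ± 0.970 reads per 100 reads of the general markers in chow sedentary vWAT (SD, n = 5). In HFD sedentary vWAT they had 9.74 ± 5.15, with a range of 5.48 to 18.1 (5.48 to 11.1 without mouse 5), and in HFD trained vWAT 6.37 ± 4.71, with a range of 1.41 to 12.95. The 5 HFD sedentary mice lay above the highest chow sedentary mouse, at 3.03, and the HFD trained mice on both sides of it, which describes genes chosen for that rise and is no support for it. In scWAT the same ratio was 1.48 ± 1.06 in chow sedentary and 5.15 ± 3.04 in HFD sedentary mice.

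**Figure D5:**
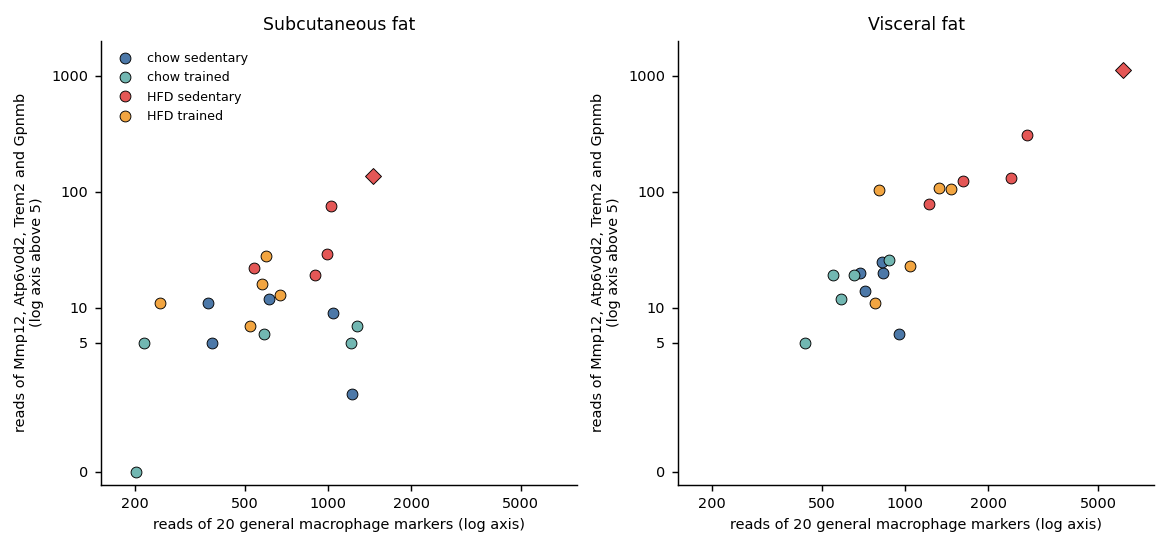
Summed reads of Mmp12, Atp6v0d2, Trem2 and Gpnmb (y axis) against summed reads of 20 general macrophage markers (x axis) per library in vWAT and scWAT, coloured by group; the diamond is HFD sedentary mouse 5. In vWAT the 5 HFD sedentary libraries have 78 to 1111 reads of the 4 genes, the 5 chow sedentary ones 6 to 25.

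Genes that work with the members moved in part with them in HFD sedentary vWAT, where 3.92% of all genes tested were called higher. Of the ligands and signalling partners of Trem2, 3 of 7 were tested; Tyrobp, its adaptor, was higher (1.66, adjusted p = 0.0128) and Apoe, a lipoprotein ligand that adipocytes also make, was lower (−0.50, adjusted p = 0.0261). Itgb2, the beta subunit that pairs with Itgax, was higher (1.74, adjusted p = 0.0227) and the only tested gene of its list of 4. Cd44, a receptor of osteopontin, was the single called gene of 4 tested Spp1 receptors (1.41, adjusted p = 0.000856). Of 15 other subunits of the V-ATPase, 2 were higher, Atp6v1a (0.56, adjusted p = 0.0399) and Atp6v1e1 (0.38, adjusted p = 0.0499). Of 24 lysosomal hydrolases and lipid handling genes 6 were higher and none lower, with a median of 0.34, among them Lgmn, a protease (1.47, adjusted p = 0.00246), and Psap, the precursor of the saposins (0.69, adjusted p = 0.00142). Among 6 tested tetraspanins Cd37 (1.26, adjusted p = 0.0268) and Cd53 (1.45, adjusted p = 0.0361), both of leukocytes, were higher. None of 5 tested other metalloproteinases and inhibitors, 3 other galectins or 7 resident macrophage genes was called. Without HFD sedentary mouse 5 Tyrobp (1.14, adjusted p = 0.0167), Cd44 (1.02, adjusted p = 0.00664), Lgmn (1.18, adjusted p = 0.00414) and Psap (0.49, adjusted p = 0.0109) were still called, with 4 of the 24 lysosomal genes in all. Itgb2 (1.20, adjusted p = 0.0500167), Apoe (−0.46, adjusted p = 0.0871), Cd37 (0.87, adjusted p = 0.156), Cd53 (1.048, adjusted p = 0.0943) and both V-ATPase subunits then missed the threshold.

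In HFD sedentary vWAT 5 of 6 tested monocyte recruitment genes were higher, beside 3.92% of all genes, with a median of 1.84. They include Ccl7, a chemokine (2.08, adjusted p = 0.00393), and Ccr2, its receptor on monocytes (1.10, adjusted p = 0.00301). With training on HFD all 6 recruitment genes were called lower, with a median of −1.88, beside 1.87% of all genes. So were 9 of 18 general macrophage markers (median −1.14) and 6 of 24 lysosomal genes (median −0.55). Without HFD sedentary mouse 5, which lets 1 more recruitment gene pass the filter, 4 of 7 were called higher with HFD and 3 of 7 lower with training. Of all genes 2.34% and 0.725% were then called so. The counts lower with training then fell to 2 of 18 macrophage markers and 2 of 24 lysosomal genes. No general macrophage marker was called for HFD in trained mice. In HFD sedentary scWAT 4 of 7 recruitment genes were higher, beside 3.55% of all genes, among them Ccl7 (2.61, adjusted p = 0.000654) and Ccl9 (1.95, adjusted p = 0.000496). Higher too were 2 of 17 general macrophage markers, Adgre1 (2.02, adjusted p = 0.0254) and Cd14 (0.93, adjusted p = 0.0477). No lysosomal gene of 24 and no Trem2 partner of 6 was called there.

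Ranked by Spearman correlation with the summed CPM of the 9 genes over the 20 vWAT libraries, the nearest of 6983 genes were Gusb (0.93), Lyz2 (0.91), Ufm1 (0.90), Cd68 (0.89), Prr32 (0.89), Ephx1 (0.88), Anxa1 (0.88) and Clec4a2 (0.88). Gusb is a lysosomal enzyme, Lyz2 the lysozyme of macrophages and neutrophils and Cd68 a lysosomal protein of macrophages. Without HFD sedentary mouse 5, Gusb was at 0.91 and Lyz2 at 0.90 over 19 libraries. In scWAT the nearest were Flna (0.92), Actg1 (0.91), Ighm (0.89), Cfb (0.89), Ifitm3 (0.89), Lxn (0.89), Gng11 (0.89) and Mycbp2 (0.88), where the summed CPM is mostly Cd63 and Cd9. In chow sedentary vWAT too the sum was mostly Cd63, Lgals3 and Cd9, with means of 368, 147 and 110 CPM. Mmp12 averaged 14.0 CPM in that group and Trem2 6.47. The libraries share diet groups, pools and depth, so these are descriptions of likeness in the data.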

How the data were processed

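RNA of 3 tissues was measured in 60 libraries, 5 per group, and the 40 fat libraries were used. The submitters' processing notes name Salmon 0.14.2 and the mm10 build. The deposited table gives expected counts that the authors rounded to whole numbers, and log2 values that the authors made from CPM plus 1, used only to check the unit. How strand and PCR copies were handled was not given in any source used here. Each mouse gave 1 library per tissue, so p-values measure the spread between mice. Coordinates are from GENCODE vM21.

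CPM are counts scaled to each library's total. Each depot's 20 libraries were fitted with edgeR 4.0.16 (TMM, filterByExpr by group with a minimum count of 10, robust quasi-likelihood F-test, Benjamini-Hochberg over all genes tested, calls at adjusted p below 0.05) in R 4.3.3. SE is the log2 fold change over the root of F. Depots were compared in 1 fit of 40 libraries with the animal as a block, from the codes in the titles. Members below the filter were compared by exact two-sided permutation of mean CPM. Alternatives were DESeq2 1.42.0, limma 3.58.1 with voom, total counts, no filter, a replicate block, the library pool and leaving out each mouse. Scripts were tested on simulated data. Pools were inferred from blocks of 12 consecutive library codes and are not named as such in the labels. Their boundary was placed where the reads of other organs change. The rule names all 9 members, the 2 called genes with the lowest adjusted p of each other list, and the 8 genes most like the summed CPM. Members and lists were chosen with earlier results of these data known. Overlapping genes and pseudogenes held 0 to 35 counts over all libraries, the most being Cd63-ps.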

Additional observations from a re-analysis of the deposited data

Results flagged for a closer look

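A gene was picked out in a group of 5 mice by the gap between an extreme mouse and its neighbour. This gap had to be more than 0.71 of the group's range. About 1 in 20 groups of 5 independent, normally distributed values would pass that limit. Low counts and genes measured in the same mice are not such values, and their chance rate was not computed. The limit was passed in 13 of the 72 groups of the 9 genes in both fat depots. Of these, 6 are HFD sedentary mouse 5 in vWAT: Mmp12 with 773 CPM (next mouse 248), Atp6v0d2 with 223 (64.2), Trem2 with 217 (43.3), Gpnmb with 449 (105), Lgals3 with 1301 (508) and Cd9 with 443 (248). The same mouse stood apart in scWAT for Trem2, with 49.9 CPM. That vWAT library lies in the pool with 145 to 217 intestinal reads, and its 6137 general macrophage reads were the highest of the 40 fat libraries; their part in these values was not tested. HFD trained mouse 5 stood apart in scWAT for Mmp12, with 19.8 CPM.

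The remaining 5 lie in chow scWAT. Chow sedentary mouse 5 had 8.38 CPM of Mmp12, from 5 reads, and chow sedentary mouse 2 had 5.94 CPM of Itgax. Chow trained mouse 3 had 1.45 CPM of Atp6v0d2, chow trained mouse 4 had 3.43 CPM of Trem2 and chow trained mouse 5 had 101 CPM of Lgals3. All but Lgals3 rest on 1 to 5 reads.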

How the results depend on the processing

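Members called, by alternative. For HFD in sedentary mice in vWAT (6 called) limma voom gave 1, the pool as a factor 1, the pool of 12 alone 0 and the 10 sedentary libraries alone 2. Leaving out 1 mouse gave 5 to 7, but not always of the same genes. Trem2 and Lgals3 missed the threshold without any 1 of chow sedentary mice 2 to 5. A smaller group also lowers the number of libraries the filter asks for. Spp1, which reached the filter's level in 4 vWAT libraries, can then be tested and counted. For training on HFD in vWAT (0 called) DESeq2 gave 3, the pool as a factor 3 and leaving out 1 mouse 0 to 6; for HFD in trained mice total counts gave 1. In scWAT (0 called) HFD in sedentary mice gave 1 with DESeq2, 2 on total counts, 4 with no filter, 1 with the pool as a factor and 0 to 3 with 1 mouse left out; training on HFD gave 3 with no filter and 0 to 2 with 1 mouse left out. Between depots, chow sedentary mice (1 called) gave 3 with no filter and 1 to 2 with 1 mouse left out, HFD sedentary mice (5) gave 2 to 7 and the difference in HFD effect (0) gave 2 with no filter and 0 to 1. Members below the filter with an exact permutation p below 0.05 (8 of 16) numbered 3 to 9 with 1 mouse left out.

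With the replicate number as a replicate block, HFD in sedentary vWAT had 5 calls and training on HFD 1, Atp6v0d2 (−2.34, adjusted p = 0.0333); scWAT had 0 in every contrast. Replicate numbers name different mice within a depot. Same-numbered mice of other groups had mean correlations of 0.149 in scWAT and 0.043 in vWAT, with lows of −0.187 and −0.204. For mice of other groups with another number the means were lower, at −0.037 in scWAT and −0.011 in vWAT. By the library codes same-numbered scWAT mice mostly lie in the same inferred pool, so replicate number and pool cannot be fully told apart there. What else same-numbered mice share was not tested. Both depots of a mouse are paired by the animal codes (mean correlation −0.011); with no replicate block that comparison called 0 members in chow sedentary and 4 in HFD sedentary mice.

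Signs turned only in differences that did not pass. Training on chow in scWAT: Lgals3 −0.061 became 0.053 in the pool of 11 and −0.34 to 0.054 with 1 mouse left out, and Cd63 0.076 became −0.043 on total counts, −0.0077 in the pool of 11, −0.094 without the lymph node libraries and −0.0080 to 0.14 with 1 mouse left out. Training on HFD in scWAT: Cd63 −0.0053 became 0.0075 with no filter, 0.088 in the pool of 9, 5.6e-05 without the lymph node libraries and −0.10 to 0.049 with 1 mouse left out. HFD in trained scWAT: Lgals3 0.12 became −0.14 to 0.40 with 1 mouse left out. Interaction in scWAT: Cd63 −0.081 became 0.094 without the lymph node libraries and −0.18 to 0.0067 with 1 mouse left out. Training on chow in vWAT, in the pool of 12 and with 1 mouse left out: Mmp12 −0.14 became 0.17 and −0.51 to 0.15, Atp6v0d2 0.28 became −0.83 and −0.020 to 0.65, Trem2 −0.030 became 0.32 and −0.48 to 0.21, and Gpnmb 0.13 became −0.71 and −0.15 to 0.68; with the pool as a factor Gpnmb became −0.030. Cd9 0.021 became −0.0092 on total counts and −0.015 to 0.068 with 1 mouse left out. HFD in trained vWAT: Trem2 0.75 became −0.24 with the pool as a factor and Cd63 −0.13 became 0.053 on total counts. Difference in HFD effect between depots with 1 mouse left out: Mmp12 −0.13 to 1.33, Trem2 −0.12 to 0.78 and Cd63 −0.082 to 0.17. Spp1 in scWAT, difference in mean CPM: 2.36 became −0.32 to 4.19 with 1 mouse left out for HFD in sedentary mice, and 0.7097 became −0.55 on TMM-scaled libraries and −0.81 to 2.51 for HFD in trained mice. The causes were not tested. Of 1478 alternative values for single genes, 1323 kept direction and side of the threshold, 66 lost it, 39 gained it and 50 changed sign. Counts of 0 to 8 per library for Atp6v0d2, Trem2 and Itgax on chow limit every fold against chow.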

Other observations

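Triceps is not described above. Mmp12 had 5, 1, 4, 3 and 2 reads in the 5 triceps chow libraries that share a library pool with the 3 vWAT libraries holding HFD sedentary mouse 5, and 0 or 1 in the other 15 triceps libraries. Lgals3 had 4 to 10 reads in those 5 libraries and 0 to 6 in the other 15. Whether reads crossed between libraries of that pool was not tested.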
